A study of Homo sapiens with 8 samples.

Results

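The BCL2 family sets whether a cell's mitochondria release the proteins that start apoptosis. The 10 genes described here were taken by symbol from the deposited gene tables: the anti-apoptotic BCL2, BCL2L1 and MCL1, the effectors BAX and BAK1, and the BH3-only BBC3, PMAIP1, BCL2L11, BMF and HRK. They are 10 of 61228 gene names in each table, and all 10 passed the filter on low counts, which left 21307 genes. RNA was measured by RNA-seq in H1975 and HCC44, lung cancer lines whose genotype label is WT, with 2 libraries in each of 4 groups. In each line, 1 group received the solvent DMSO and the other received ACBI1, both for 96 hours in RPMI medium with serum. ACBI1 links the VHL ubiquitin ligase to SMARCA2, SMARCA4 and PBRM1, which belong to SWI/SNF chromatin remodellers, so that they are degraded. The labels give its concentration as 1 mM, a unit that is uncertain because degraders are usually used far lower. Each line is a single established line, and the labels do not say whether the replicates were separate cultures, so p-values measure the spread between these libraries.

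In the mitochondrial pathway, BAX and BAK1 proteins form pores in the outer mitochondrial membrane and cytochrome c escapes to activate caspases. BCL2, BCL-XL (the long product of BCL2L1) and MCL1 bind the effectors and hold them inactive. BH3-only proteins such as PUMA (from BBC3), NOXA (PMAIP1), BIM (BCL2L11), BMF and HRK occupy the anti-apoptotic proteins, and BIM and PUMA can also engage the effectors directly. Many carcinomas of the lung depend on MCL1 or BCL-XL, and BIM is known for its role in the death of EGFR-mutant lung cancer cells when EGFR is blocked. Protein activity in this family is also set by phosphorylation, degradation and splicing, which gene counts do not show.

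Values are CPM (counts scaled to a common total of gene-assigned reads) on library sizes scaled by TMM, a method that aligns libraries on genes that change little. Tests are edgeR's quasi-likelihood F-test, with p-values adjusted by Benjamini-Hochberg over all 21307 genes, and a gene is called, and said to rise or fall, where the adjusted p is under 0.05. Fold changes are ACBI1 against DMSO within a line, on the log2 scale, with their SE. Libraries held 62467286 to 70455517 gene-assigned reads. Chi-square tests put every replicate pair beyond counting error (24 to 48.4 per degree of freedom). The 5 epithelial markers KRT8, KRT18, KRT19, EPCAM and CDH1 summed to 2150 to 2270 CPM with DMSO and 1030 to 1200 CPM with ACBI1 in H1975, and to 517 to 521 and 449 to 536 CPM in HCC44. The lung lineage factor NKX2-1 was at 19.2 to 27.5 CPM in H1975 and at no more than 0.0318 CPM in HCC44, and the T cell marker CD3E was at 0 in all 8 libraries. The fibroblast markers COL1A1, COL3A1 and PDGFRB summed to 45 to 69.6 CPM with DMSO and 25 to 30.2 CPM with ACBI1 in H1975, and to 73.3 to 91.8 and 203 to 407 CPM in HCC44. Most of each sum was COL1A1, which fell in H1975 (-1.13, adjusted p 0.0485) and rose in HCC44 (1.91, adjusted p 0.0055), and PDGFRB rose in H1975 (1.38, adjusted p 0.00352). The part of these marker shifts in the results below was not tested. In bulk RNA, fewer cells of a kind and less RNA per cell cannot be told apart.

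Most members were lower with ACBI1, while BCL2 was higher in both lines. In H1975, 8 of 10 members were called, 1 higher and 7 lower, where 31.3% of all tested genes were called. In HCC44, 9 of 10 were called, 3 higher and 6 lower, against 34.9% of tested genes. The background was 14.6% higher and 16.7% lower in H1975, and 17.5% higher and 17.4% lower in HCC44. These shares were not matched to the members' levels. Among 16044 genes with at least 1 CPM in 2 libraries, 2939 were higher and 3158 lower in H1975. In HCC44 the counts among those genes were 3520 and 3375. The median log2 fold change of the members was -0.40 in H1975 and -0.37 in HCC44, beside -0.01 and 0.01 for all tested genes. BCL2L1, MCL1, BAK1, PMAIP1, BCL2L11 and BMF fell in both lines, and BCL2 rose in both. BBC3 fell in H1975 and rose in HCC44, HRK rose in HCC44 and was not called in H1975, and BAX was called in neither. The ACBI1 and DMSO libraries did not overlap for any member in either line, which was also the case for 67.3% of tested genes in H1975 and 66.8% in HCC44.

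**Figure D1:**
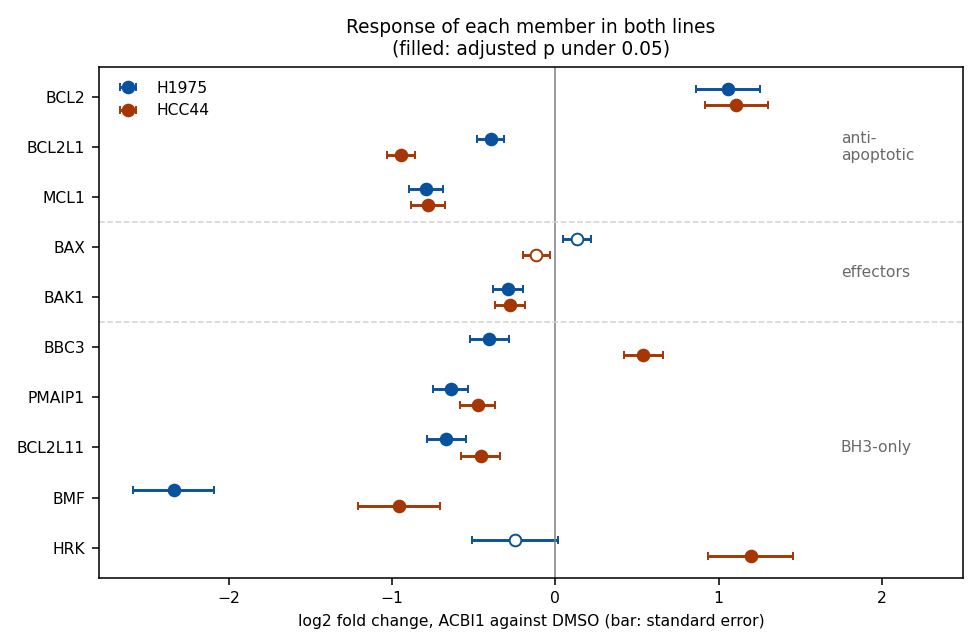
Log2 fold change of each member, ACBI1 against DMSO, in H1975 and HCC44, with the SE as bars and filled points for adjusted p under 0.05. BCL2 lies at 1.06 and 1.11, BMF at -2.34 and -0.96, and BBC3 on opposite sides of 0.

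Sequences just upstream of a RefSeq start are shown for 4 members, which cover a shared rise, a shared fall and opposite directions. Those of HRK, called in HCC44 alone, and BAX, called in neither line, are not shown. BCL2 rose in both lines, and BMF had the lowest fold change of the members in H1975. BCL2L11 fell in both lines, and BBC3 moved in opposite directions. Each is the 250 bases before a RefSeq transcription start on build GRCh38.p14, written 5′ to 3′ on the gene's strand. The windows are chr18:63319770-63320019 (minus strand) for BCL2, chr15:40108880-40109129 (minus) for BMF, chr2:111120664-111120913 (plus) for BCL2L11 and chr19:47232668-47232917 (minus) for BBC3. Capitals mark matches, on either strand, to 6 motifs: AP-1 (TGANTCA), CRE (TGACGTCA), E-box (CACGTG), forkhead (GTAAACA), GC box (GGGCGG) and TATA box (TATAAA).
BCL2: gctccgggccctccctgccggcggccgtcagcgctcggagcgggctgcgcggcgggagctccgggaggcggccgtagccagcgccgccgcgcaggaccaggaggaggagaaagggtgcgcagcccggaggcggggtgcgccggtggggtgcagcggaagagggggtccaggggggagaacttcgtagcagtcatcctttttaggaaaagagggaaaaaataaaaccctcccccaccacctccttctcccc
BMF: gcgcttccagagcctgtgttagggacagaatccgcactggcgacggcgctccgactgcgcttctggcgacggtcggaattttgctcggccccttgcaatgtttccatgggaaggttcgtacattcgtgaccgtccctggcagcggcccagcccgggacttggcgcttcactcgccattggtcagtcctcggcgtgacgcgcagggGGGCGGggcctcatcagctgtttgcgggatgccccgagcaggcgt
BCL2L11: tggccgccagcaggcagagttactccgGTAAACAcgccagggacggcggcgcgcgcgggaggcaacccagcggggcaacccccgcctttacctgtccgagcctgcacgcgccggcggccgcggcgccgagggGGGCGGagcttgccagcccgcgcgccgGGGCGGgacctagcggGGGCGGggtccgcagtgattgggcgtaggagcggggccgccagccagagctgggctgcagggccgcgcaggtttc
BBC3: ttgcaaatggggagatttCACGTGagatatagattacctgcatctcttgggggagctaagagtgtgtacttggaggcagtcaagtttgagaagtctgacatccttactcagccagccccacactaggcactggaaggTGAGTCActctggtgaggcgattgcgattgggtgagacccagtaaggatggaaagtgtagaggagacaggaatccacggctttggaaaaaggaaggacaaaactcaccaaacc

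The BCL2 window held none of the 6 motifs. The BMF window held 1 GC box, 45 bases before the start, and a window at a second BMF start held no match. The BCL2L11 window held 3 GC boxes and, 223 bases before the start, 1 forkhead match. The BBC3 window held 1 AP-1 match 113 bases and 1 E-box 232 bases before the start. RefSeq windows were matched for 9 of the 10 members, in 11 windows, and no base was shared between matches to different motifs. Among the other members, BAX held 4 E-boxes and 1 GC box, PMAIP1 4 GC boxes, BAK1 and HRK 2 GC boxes each, and the first BCL2L1 window 2 TATA boxes. Of 35116 windows of the same length, 6.57% held AP-1, 1.65% CRE, 6.34% an E-box, 2.98% forkhead, 42.6% a GC box and 10.7% a TATA box. A match describes letters in the window and is not a measured site.

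BCL2, the founding member of the family and the target of venetoclax, roughly doubled in each line from a low level. The gene lies at chr18:63123346-63320128 on the minus strand (GENCODE 29, GRCh38, as for all gene positions here). It was at 2.56 and 2.80 CPM in the H1975 DMSO libraries and at 5.39 and 5.78 CPM with ACBI1. In HCC44 it was at 5.13 and 4.61 CPM with DMSO and at 12.1 and 8.95 CPM with ACBI1. Every ACBI1 library was above both DMSO libraries of its line, and the HCC44 ACBI1 pair was the most spread. The fold change was 1.06 ± 0.20 in H1975 (2.08-fold, adjusted p 0.00248) and 1.11 ± 0.19 in HCC44 (2.16-fold, adjusted p 0.00118). The difference between the lines was 0.05 with a 95% interval of -0.55 to 0.65 (adjusted p 0.944), so neither equal nor unequal responses were shown.

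BCL2L1, which encodes BCL-XL (chr20:31664452-31723989, minus strand), fell in both lines and fell further in HCC44. In H1975 its level was 191 and 191 CPM with DMSO and 151 and 139 CPM with ACBI1. HCC44 libraries held 123 and 116 CPM with DMSO and 63.1 and 61.4 CPM with ACBI1. The 4 groups did not overlap. The fold change was -0.40 ± 0.08 in H1975 (adjusted p 0.00498) and -0.94 ± 0.09 in HCC44 (1.93-fold lower, adjusted p 2.26e-05). The difference of -0.55 ± 0.12 passed the test (adjusted p 0.0101). In H1975 the call was lost with library totals in place of TMM factors, at -0.19, and without ACBI1 replicate 2, at -0.31. ABALON, annotated on the opposite strand, shares 1424 exonic bases with BCL2L1, and without a known strand setting its reads cannot be told apart. ABALON was at 0.192 to 0.799 CPM and fell in HCC44 (-1.47, adjusted p 0.0158).

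MCL1, a short-lived anti-apoptotic protein (chr1:150574551-150579738, minus strand), had the largest level per kilobase of the 10 members and fell in both lines. H1975 held 664 and 607 CPM with DMSO and 385 and 350 CPM with ACBI1. HCC44 held 932 and 799 CPM with DMSO and 531 and 476 CPM with ACBI1. Both ACBI1 libraries lay well below both DMSO libraries in each line. Fold changes were -0.79 ± 0.11 in H1975 (1.73-fold lower, adjusted p 0.000368) and -0.78 ± 0.11 in HCC44 (1.72-fold lower, adjusted p 0.000258). Both calls held in all 17 alternatives. The difference between the lines was 0.01, with a 95% interval of -0.32 to 0.34.

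**Figure D2:**
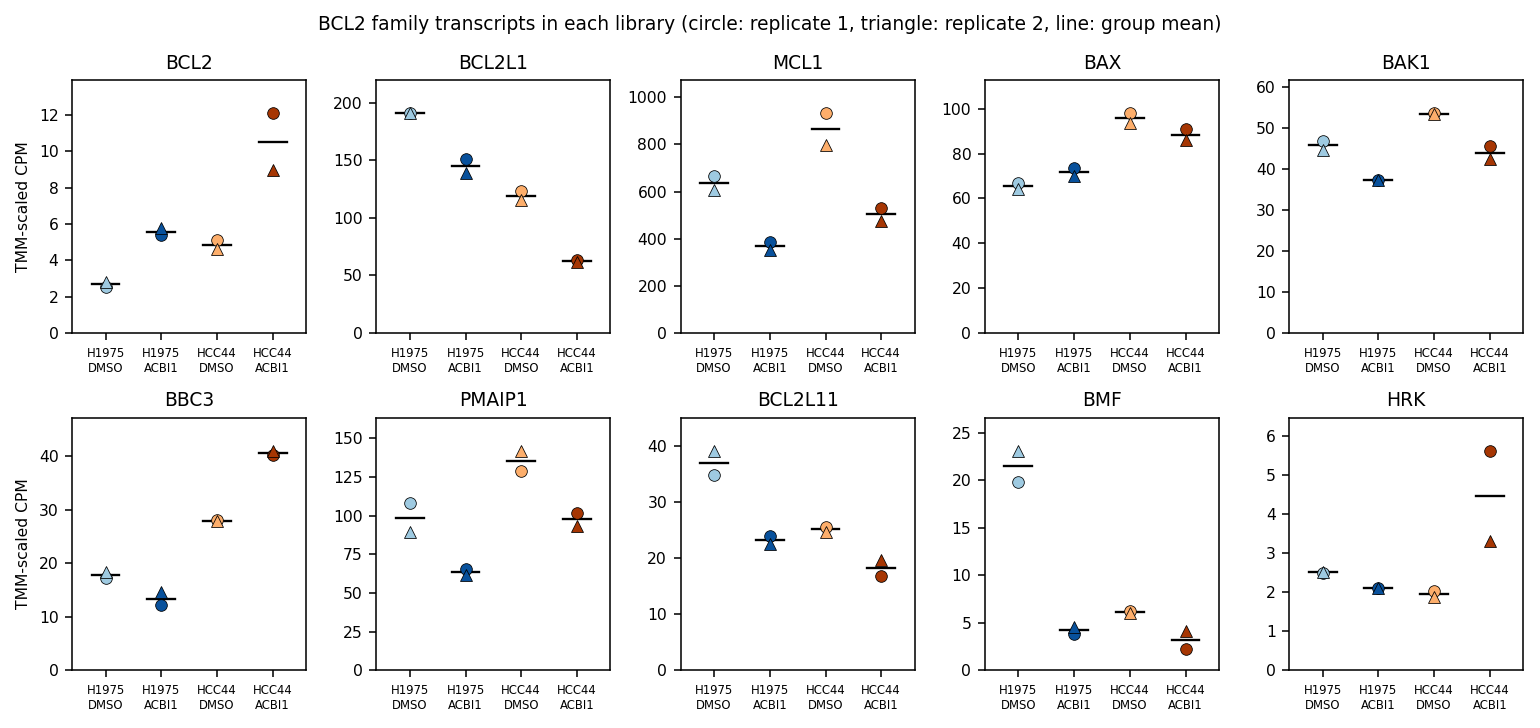
TMM-scaled CPM of each member in the 8 libraries, by line and treatment, with 1 point per library and a line at the group mean. BCL2 is higher with ACBI1 in both lines, BMF and MCL1 are lower, and the BBC3 points move apart between the lines.

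Of the effectors, BAX (chr19:48954815-48961798, plus strand) passed the test in neither line. In H1975 it was at 66.7 and 64 CPM with DMSO and at 73.6 and 69.9 CPM with ACBI1. HCC44 held 98 and 93.7 CPM with DMSO and 90.8 and 86.1 CPM with ACBI1. Its fold change was 0.13 (95% interval -0.05 to 0.32, adjusted p 0.262) in H1975 and -0.12 (-0.30 to 0.07, adjusted p 0.326) in HCC44. With library totals BAX passed the threshold in H1975, at 0.34 (adjusted p 0.012). Levels of BAX lay higher in all HCC44 libraries than in all H1975 libraries.

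BAK1 (chr6:33572547-33580293, minus strand), the effector that resides on the mitochondrial membrane, fell slightly. H1975 held 46.9 and 44.6 CPM with DMSO and 37.4 and 37.3 CPM with ACBI1. HCC44 held 53.6 and 53.3 CPM with DMSO and 45.6 and 42.4 CPM with ACBI1. Each ACBI1 pair sat a little below the DMSO pair of its line. The fold changes were -0.29 ± 0.09 (adjusted p 0.0332) and -0.28 ± 0.09 (adjusted p 0.0356). Each call was lost in 11 of 17 alternatives, in H1975 with DESeq2 among them.

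BMF, a BH3-only sensor linked to the cytoskeleton (chr15:40087890-40108892, minus strand), was 5.07-fold lower with ACBI1 in H1975. H1975 held 19.8 and 23.1 CPM with DMSO and 3.88 and 4.6 CPM with ACBI1. In HCC44 the values were 6.26 and 6.08 CPM with DMSO and 2.21 and 4.14 CPM with ACBI1. The H1975 groups were far apart, whereas the HCC44 ACBI1 libraries, at 138 and 263 reads, were spread apart, both below the DMSO pair. The fold change was -2.34 ± 0.25 in H1975 (adjusted p 0.000103) and -0.96 ± 0.25 in HCC44 (adjusted p 0.0124). The HCC44 call was lost without ACBI1 replicate 1 (-0.57), DMSO replicate 1 (-0.94) or DMSO replicate 2 (-0.98), and the value was -1.48 without ACBI1 replicate 2. The difference between the lines, 1.38 ± 0.35 (adjusted p 0.0194), was lost without H1975 DMSO replicate 2 (1.21), H1975 ACBI1 replicate 1 (1.23), HCC44 DMSO replicate 1 (1.4), HCC44 DMSO replicate 2 (1.37) or HCC44 ACBI1 replicate 2 (0.86).

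BCL2L11, which encodes BIM (chr2:111119378-111168447, plus strand), fell in both lines. Its H1975 libraries held 34.9 and 39.2 CPM with DMSO and 24 and 22.5 CPM with ACBI1. Its HCC44 level was 25.6 and 24.7 CPM with DMSO and 16.9 and 19.7 CPM with ACBI1. Its ACBI1 libraries were below the DMSO libraries in each line, with a wider gap in H1975. BCL2L11 did not pass the test of a difference between the lines (0.21, 95% interval -0.16 to 0.58, adjusted p 0.432). Its fold change was -0.67 ± 0.12 in H1975 (adjusted p 0.00195) and -0.46 ± 0.12 in HCC44 (adjusted p 0.0125), and the HCC44 call was lost without DMSO replicate 1, DMSO replicate 2 or ACBI1 replicate 1. MIR4435-2HG, on the opposite strand, shares 727 exonic bases with BCL2L11 and was at 16.6 to 25.5 CPM, a level near that of BCL2L11. Without a known strand setting, reads from the shared bases of these genes cannot be told apart either. MIR4435-2HG was not called in H1975 (-0.05, adjusted p 0.789) or HCC44 (0.22, adjusted p 0.202).

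PMAIP1, which encodes NOXA, the BH3-only partner of MCL1 (chr18:59899948-59904306, plus strand), fell in both lines. H1975 held 108 and 89.3 CPM with DMSO and 65.3 and 61.4 CPM with ACBI1, and HCC44 held 129 and 142 CPM with DMSO and 102 and 93.6 CPM with ACBI1. All ACBI1 libraries lay below the DMSO libraries of their line. Fold changes were -0.64 ± 0.11 in H1975 (adjusted p 0.00142) and -0.48 ± 0.11 in HCC44 (adjusted p 0.00579), the latter lost without DMSO replicate 2, at -0.40. BAX, PMAIP1, HRK and BCL2 share no exonic bases with another annotated gene.

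BBC3, which encodes PUMA, a potent killer among the BH3-only proteins (chr19:47220822-47232766, minus strand), moved in opposite directions. In H1975 it was at 17.2 and 18.3 CPM with DMSO and at 12.2 and 14.6 CPM with ACBI1. In HCC44 it was at 28 and 27.8 CPM with DMSO and at 40.2 and 41.0 CPM with ACBI1. Within each line the treated and control libraries were apart, on opposite sides. The fold change was -0.41 ± 0.12 in H1975 (adjusted p 0.0255) and 0.54 ± 0.12 in HCC44 (1.45-fold higher, adjusted p 0.00476). BBC3 shares 80 exonic bases with MIR3190, which was at no more than 0.11 CPM. The difference between the lines, 0.95 ± 0.17 (95% interval 0.57 to 1.32, adjusted p 0.00389), held in all 16 alternatives. The fall in H1975 was lost with library totals (-0.20) and without DMSO replicate 1 (-0.45), DMSO replicate 2 (-0.31) or ACBI1 replicate 1 (-0.24).

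HRK, a BH3-only gene best known in neurons (chr12:116856144-116881441, minus strand), was low in every library. Its H1975 values were 2.5 and 2.53 CPM with DMSO and 2.11 and 2.12 CPM with ACBI1. Its HCC44 values were 2.03 and 1.87 CPM with DMSO and 5.63 and 3.32 CPM with ACBI1. The HCC44 ACBI1 pair was spread widely but stood above the other libraries. The fold change was 1.2 ± 0.26 in HCC44 (2.29-fold higher, adjusted p 0.00475), and -0.25 (95% interval -0.82 to 0.33, adjusted p 0.508) in H1975. Leaving out HCC44 ACBI1 replicate 1 brought the rise to 0.77, still called. The difference between the lines was 1.45 ± 0.37 (adjusted p 0.0205). It was lost without H1975 ACBI1 replicate 1 (1.41) or 2 (1.43), HCC44 DMSO replicate 1 (1.51) or 2 (1.39), or HCC44 ACBI1 replicate 1 (1.02).

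In the difference between the lines, 4 of 10 members were called, 3 positive and 1 negative, where 18.6% of tested genes were called, 10.2% positive and 8.4% negative. BBC3, BMF and HRK had the more positive value in HCC44, and BCL2L1 the more negative. The median difference of the members was 0.11, against 0.04 for all genes. BBC3 and BCL2L1 held in all 16 alternatives.

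The lines also differed before treatment. Between the DMSO groups 9 of 10 members were called, 6 higher and 3 lower in HCC44, where 67.9% of tested genes were called, 31.6% higher and 36.4% lower. The DMSO libraries of the lines did not overlap for any of the 10 members, nor for 84.9% of tested genes. BCL2, MCL1, BAX, BAK1, BBC3 and PMAIP1 were higher in HCC44, by 0.22 (BAK1) to 0.86 (BCL2) on the log2 scale. The BAK1 call (adjusted p 0.0486) was lost in 11 of 16 alternatives, DESeq2 among them, while the other calls between the DMSO groups held in all 16. BCL2L1 was lower by a log2 value of -0.67, BCL2L11 by -0.56 and BMF by -1.80, the last being 3.48-fold lower (adjusted p 5.82e-05). HRK was not called, at -0.37 (95% interval -0.95 to 0.21). Across the 4 groups the highest mean exceeded the lowest by 6.77-fold for BMF, 3.93-fold for BCL2, 3.07-fold for BCL2L1 and 1.43-fold for BAK1. The order of BCL2 was HCC44 ACBI1, H1975 ACBI1, HCC44 DMSO, H1975 DMSO, and these neighbours did not overlap. For BMF the H1975 ACBI1 and HCC44 ACBI1 libraries overlapped at the bottom of the order. For BAK1 and PMAIP1, H1975 DMSO and HCC44 ACBI1 overlapped.

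Levels of different genes were compared per kilobase of exon, using GENCODE 29 lengths, which approximates the authors' gene models. MCL1 was at 145 CPM per kb in H1975 DMSO and 198 in HCC44 DMSO, and BCL2L1 at 57.6 and 36.1. BCL2 was at 0.228 and 0.414 CPM per kb, so that its rise left it at 0.475 and 0.894 with ACBI1. MCL1 made up 65.4 to 85.8% of the summed anti-apoptotic level per kb, and BCL2 0.104 to 0.725%. PMAIP1 made up 71 to 82.1% of the BH3-only sum. Among the anti-apoptotic members BCL2 had the largest fold change in each line and the lowest level per kb in each group.

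The sums per role are described without a test. The anti-apoptotic sum was 197 to 210 CPM per kb in H1975 DMSO and 122 to 134 with ACBI1, and 218 to 251 and 128 to 142 in HCC44. The BH3-only sum was 56.2 to 63.2 and 36.6 to 37.7 in H1975, and 72 to 77.4 and 59 to 61.9 in HCC44. The effector sum was 44.9 to 47 and 43.8 to 45.3 in H1975, where the groups overlapped, and 60.3 to 62.1 and 52.4 to 55.7 in HCC44. Ratios of single members also shifted. Across roles, the ratio of BAX to BCL2 per kb was 104 to 118 in H1975 DMSO and 54.9 to 62.1 with ACBI1. In HCC44 it was 86.8 to 92.4 and 34.2 to 43.7. BCL2 made up at most 0.725% of the anti-apoptotic sum, so this ratio does not stand for the balance of the roles. The ratio of BBC3 to BMF was 1.35 to 1.48 in H1975 DMSO and 5.37 to 5.45 with ACBI1, and 7.65 to 7.84 and 17 to 31.2 in HCC44. The share of BCL2L1 in the anti-apoptotic sum was 27.4 to 29.3% and 34 to 34.2% in H1975, and 14.8 to 16.1% and 13.4 to 14.4% in HCC44.

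**Figure D3:**
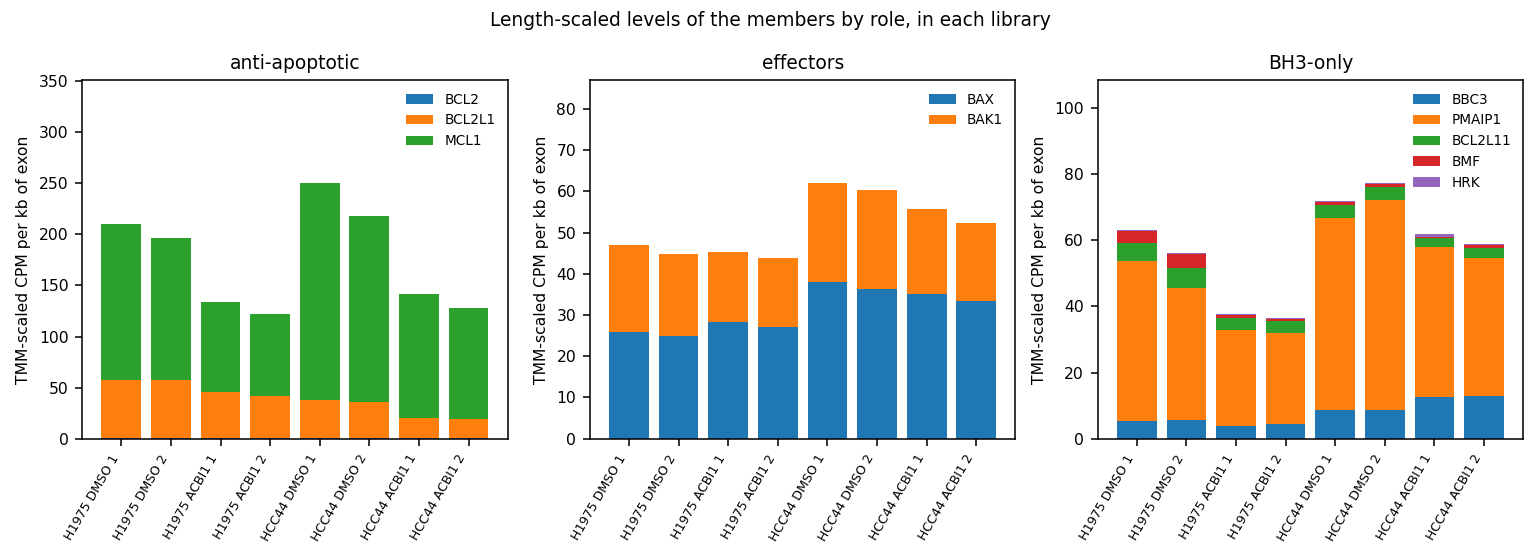
Stacked bars of the members' levels in TMM-scaled CPM per kilobase of exon, 1 bar per library and 1 panel per role. MCL1 takes most of the anti-apoptotic bars (65.4 to 85.8%) and PMAIP1 most of the BH3-only bars (71 to 82.1%), and BCL2 is too low to see.

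The genes around the family were counted from 8 lists holding 102 genes, of which 99 were tested. The counts of some lists are not reported here in full. In the remaining BCL2 family, 2 of 12 tested genes rose and 2 fell in H1975, and 3 rose and 3 fell in HCC44. BID, the BH3-only protein that caspase-8 cleaves, rose from 14.9 ± 1 to 28.8 ± 2.8 CPM in H1975 (0.95 ± 0.11, adjusted p 0.000124). In HCC44 it fell from 105 ± 3.2 to 64 ± 2.7 CPM (-0.72 ± 0.10, adjusted p 0.000367). The BID difference between the lines was -1.66 ± 0.15 (adjusted p 9.95e-05). BOK also moved in opposite directions, with -0.43 in H1975 and 0.39 in HCC44, and a difference of 0.82 (adjusted p 0.0109). BCL2L12 rose in both lines, and BNIP3L fell in H1975. In HCC44, BAD rose and BNIP3 and BIK fell.

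Of the genes that act once cytochrome c is released, CYCS (cytochrome c itself) and ENDOG rose in H1975, and in HCC44 CASP9 rose and HTRA2 fell. Of 7 inhibitor of apoptosis genes, 1 rose and 1 fell in H1975, and 4 rose and 2 fell in HCC44. BIRC3, a ubiquitin ligase in TNF signalling, rose from 4.10 ± 0.68 to 12.9 ± 1.9 CPM in H1975 and from 112 ± 17 to 789 ± 74 CPM in HCC44, with a difference of 1.16 (adjusted p 0.00493). BIRC6 fell in both lines. In HCC44, BIRC2, NAIP and BIRC5 rose, the last from 16.5 ± 10 to 72.6 ± 24 CPM, and XIAP fell. NAIP was low there, at 21 reads in each DMSO library and 54 in each ACBI1 library.

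In the death receptor pathway, 1 of 14 tested genes rose and 5 fell in H1975, and 1 rose and 4 fell in HCC44. TNFSF10, TNFRSF10B, TNFRSF1A, FADD and CASP8 fell in H1975, and TNFRSF10C rose. TNFSF10, TNFRSF10B, TNFRSF10D and TNFRSF25 fell in HCC44, and RIPK1 rose. TNFSF10 had 23 and 29 reads in the H1975 DMSO libraries and 1 read in each ACBI1 library.

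Among transcription regulators of the family, 5 of 15 fell in each line. E2F1 rose from 57.6 ± 3.1 to 97.3 ± 4 CPM in H1975 and from 34.8 ± 7.1 to 96 ± 2 CPM in HCC44. NFKB1 rose in HCC44. HIF1A and FOXO3 fell in both lines, TP63, ATF4 and STAT3 in H1975, and FOXO4, DDIT3 and JUN in HCC44. From a list whose counts are not reported here, CDKN1A, which encodes a cell cycle inhibitor, fell from 156 ± 11 to 59.4 ± 14 CPM in H1975 and from 127 ± 25 to 66.3 ± 8.7 CPM in HCC44. GDF15, a stress-induced cytokine of the same list, fell from 165 ± 19 to 123 ± 11 CPM in H1975 and from 178 ± 8.8 to 39.4 ± 5.9 CPM in HCC44.

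Of 11 genes that act on MCL1 and BIM protein, 3 rose (CDC20, UBE2C and MAPK3) and 3 fell (FBXW7, HUWE1 and DYNLL2) in HCC44, and FBXW7 and DYNLL2 also fell in H1975. Of 10 mitochondrial membrane partners, 1 rose (HK2) and 2 fell (BCAP31 and MARCHF5) in H1975, and 1 rose (VDAC1) and 3 fell (BCAP31, MARCHF5 and HK2) in HCC44. In the 8 lists together, 41 genes were called in H1975 and 49 in HCC44. Of these calls, 19 in H1975 and 26 in HCC44 held in every alternative. Among the genes named here, the calls of BIRC6, BOK, FOXO3 and HK2 were lost in at least 1 alternative in both lines. In H1975 those of ATF4, BCL2L12, BNIP3L, CASP8, CYCS, ENDOG, FBXW7, GDF15, MARCHF5, STAT3 and TNFRSF10C were also lost. In HCC44 those of BAD, BIRC5, CASP9, CDC20, HIF1A, HTRA2, JUN, MAPK3, RIPK1, TNFRSF10B, TNFRSF25, UBE2C, VDAC1 and XIAP were also lost.

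**Figure D4:**
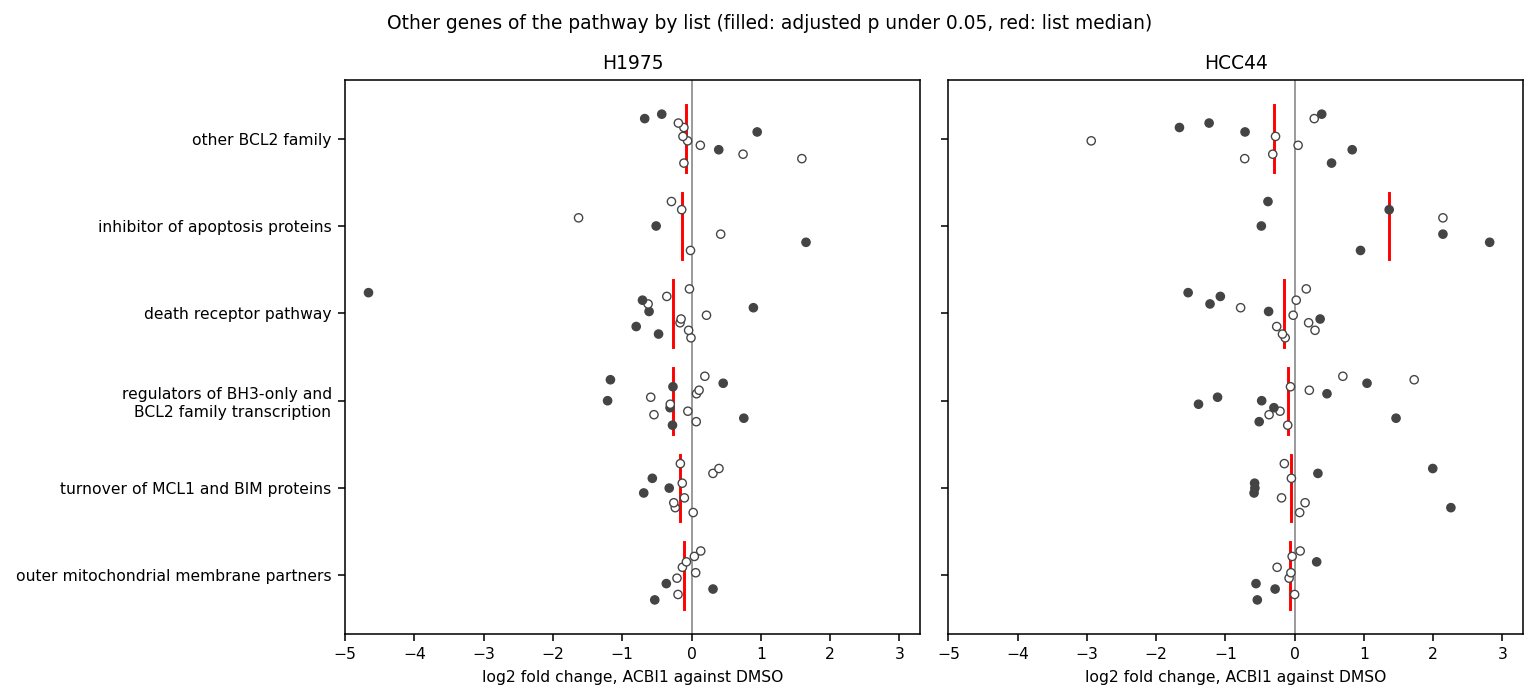
Log2 fold change, ACBI1 against DMSO, of each tested gene plotted from 6 of the lists, 1 panel per line, with filled points for adjusted p under 0.05 and a red bar at the list's median. In H1975 the list medians lie between -0.27 and -0.08. In HCC44 the inhibitor of apoptosis genes have the highest median, 1.36, which is the value of NAIP, a gene at 21 to 54 reads. Among the genes above it is BIRC7, uncalled at 1 to 13 reads, and XIAP and BIRC6 fell.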

How the data were processed

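The deposited values are raw counts of reads per gene, 1 table per library; per the submitters' processing notes the tools were TopHat2 2.1.1 and HTSeq 0.11.0 on hg38. The annotation and the strand setting are not given in the sources used here. Summary rows, 5 in each table of 61228 genes, held 14.3 to 15.8% of its total and were left out. The title of HCC44 ACBI1 replicate 2 abbreviates the compound, which its treatment label spells out. Members and lists were chosen with earlier results of these data known.

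Counts were analysed with edgeR 4.0.16 in R 4.3.3. Genes were filtered by filterByExpr on the 4 groups and scaled with TMM, and the 8 libraries were fitted together with 4 group means (4 residual degrees of freedom). Contrasts, tested by the quasi-likelihood F-test (two-sided, robust), were the ACBI1 effect per line, the difference (HCC44 minus H1975) and the DMSO groups, each with Benjamini-Hochberg adjustment and a threshold of 0.05. An SE is the log2 fold change over the root of F. The biological coefficient of variation was 0.123. The fit was tested on simulated data, where the share of false calls was above the nominal level in both lines. Most genes changed by the smallest simulated fold were missed. Far fewer genes were changed there than were called in the data, so these shares need not hold for the data. Named genes were all members and, from each list and line, up to 2 called rises and 2 called falls of the largest size among genes reaching 5 CPM in a group of the line; counts of 5 or fewer were named in full. Alternatives were DESeq2 1.42.0, 3 other scalings, no filter, 1 CPM in 2 libraries, a replicate block, non-robust dispersion, each line alone and each library left out. A planned search of the member proteins was not run. Some genes that the rule names are left out. Lengths came from GENCODE 29 and promoters from RefSeq.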

Additional observations from a re-analysis of the deposited data

Results flagged for a closer look

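In 4 members the lines responded unequally to ACBI1 by the test of the difference itself (HCC44 minus H1975, log2 scale, edgeR). The difference was -0.548 for BCL2L1 (adjusted p 0.0101), with a fall in both lines. It was 0.945 for BBC3 (adjusted p 0.00389), with opposite directions. It was 1.383 for BMF (adjusted p 0.0194), with a fall in both lines. It was 1.446 for HRK (adjusted p 0.0205), with a rise in HCC44 alone passing the threshold. The BMF and HRK differences were each lost when any of 5 single libraries was left out, as listed with each gene above.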

How the results depend on the processing

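With 2 libraries per group the spread rests on 4 residual degrees of freedom, and a left-out library leaves its group with 1, assumed to vary like the others. Over the alternatives 6 to 8 members were called in H1975, 5 to 9 in HCC44, 2 to 4 in the difference and 8 to 9 between the DMSO groups. BCL2, BCL2L11, BMF, MCL1 and PMAIP1 kept their call in H1975 in all 17, and BBC3, BCL2, BCL2L1, HRK and MCL1 in HCC44. Leaving out 1 library gave 6 to 8 members called in H1975, 5 to 8 in HCC44 and 2 to 4 in the difference, and 3690 to 7161, 4945 to 7342 and 2341 to 4134 genes called. In H1975, 4342 genes were called without DMSO replicate 1 and 3690 without ACBI1 replicate 2. In HCC44, 5 members and 4945 genes were called without DMSO replicate 2. In the difference, 2481 genes were called without H1975 ACBI1 replicate 2, 2341 without HCC44 DMSO replicate 1 and 2598 without HCC44 DMSO replicate 2, and 2 members were called without H1975 ACBI1 replicate 1 or either HCC44 DMSO library.

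Uncalled differences near 0 changed sign; the cause was not tested. For MCL1 the difference was -0.029 with DESeq2, -0.029 with RLE factors, -0.012 with upper-quartile factors and, scaled by library totals, -0.104. For BAK1 it was -0.025, -0.025, -0.007 and -0.1, and for BCL2 -0.06 with library totals. Leaving out 1 library gave -0.177 to 0.254 for BCL2, -0.093 to 0.121 for MCL1 and -0.038 to 0.067 for BAK1. With library totals the median gene moved up by 0.203 (H1975) and 0.091 (HCC44), and rises made up 72.3% of calls against 46.6% in H1975, and 60.5% against 50% in HCC44.

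With the replicate number as a block, 8, 9, 4 and 9 members were called, as without it, and 6358 genes were called in the difference against 3967. Deviations of same-numbered libraries correlated at 0.374 in H1975 and 0.109 in HCC44, and with 2 pairs per line the numbers were not taken as pairing.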
